A study of Mus musculus with 6 samples.

Results

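The genes of oxidative phosphorylation were followed in bone marrow-derived macrophages, which are macrophages grown in culture from bone marrow. The members were chosen by name from the non-control probes of the arrays. A name had to begin with Ndufa, Ndufb, Ndufc, Ndufs, Ndufv, Uqcr, Atp5 or Cox4 to Cox8, and Cycs, Cyc1, Sdhb, Sdhc, Sdhd and Ppargc1b were added. This gave 94 of 27361 gene names. Of these, 81 encode subunits of the respiratory chain or ATP synthase: 36 of complex I, 3 of complex II, 9 of complex III, 18 of complex IV and 15 of complex V. Ndufa4, named for complex I, was counted with complex IV, where its protein resides. The name rule also took in Cycs, the coactivator Ppargc1b, and 11 other genes: the complex I assembly factors Ndufaf1 to Ndufaf7, the supercomplex factor Cox7a2l, the pseudogene Atp5c1-ps, and Atp5s and Atp5sl, whose current symbols are Dmac2l and Dmac2.

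Oxidative phosphorylation takes electrons from NADH at complex I and from succinate at complex II. They pass through coenzyme Q, complex III and the small protein cytochrome c to complex IV, which reduces oxygen. The proton gradient built on the way drives complex V, the ATP synthase. Nearly every subunit is encoded in the nucleus, while a few core subunits come from mitochondrial DNA. Macrophages activated with lipopolysaccharide are known for reliance on glycolysis, and macrophages given interleukin-4 for reliance on mitochondrial respiration, for which the coactivator PGC-1 beta, the product of Ppargc1b, is a known regulator.

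Cells of C57BL/6 mice of 2 genotypes were compared. Control cells (WT) were FoxO1 Fl/Fl, with the Foxo1 gene floxed and no Cre. Knockout cells (KO) were LysMcre FoxO1 Fl/Fl, in which a Cre recombinase driven from the myeloid lysozyme M gene deletes Foxo1, so the presence of Cre and the loss of Foxo1 cannot be told apart. Marrow of both was grown for 7 days with 10% L929-conditioned medium. M0 cells were left unstimulated. For M1, lipopolysaccharide was added at 100 ng/ml with interferon-gamma at 20 ng/ml. For M2, interleukin-4 and interleukin-13 were each added at 10 ng/ml. Both lasted 24 hours. Each of the 6 combinations had 1 Agilent 1-colour array. The labels do not give ages and do not say if the 6 RNAs are of different animals, so p-values measure only the spread between these arrays.

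A level below is the log2 of the processed spot signal relative to the 75th percentile of its array, which lay between 532 and 628 signal units. No probe was saturated, and 62.8% to 67.7% of probes were well above background. A gene stands for its brightest probe, and levels of different probes are not compared. The WT M0 and WT M1 arrays shared 1 slide and the other 4 arrays a second slide. M1 against M0 was therefore measured within a slide in both genotypes, M2 against M0 within a slide in KO only, and KO against WT within a slide in M2 only. The brighter of 2 Foxo1 probes was lower in KO by 2.92, 2.78 and 2.66 in M0, M1 and M2, so every array fitted its genotype label. The labels do not say if the probes lie in the deleted part. All 9 macrophage markers were above background on every array. Transcripts of 19 liver markers were also present: all 19 were above background on WT M0 (median level 0.48), 15 on KO M1 (median -3.96) and 6 to 10 on the others. Neutrophil and stromal markers had their highest medians on WT M0 too, at -0.92 and -1.42. In such bulk samples fewer cells of a type and less RNA per cell cannot be told apart.

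Of the 94 members, 91 were well above background on at least 2 arrays and were tested, and 90 on all 6. Cox7b2, Cox8b and Cox8c, isoforms known from testis, muscle or fat, were above background on no array and had no usable level. Their values ran from -8.43 to -7.78, from -8.55 to -6.43 and from -8.59 to -6.78. Cox4i2, the hypoxia- and lung-associated form of subunit 4, was above background on KO M1 and KO M2 only. It entered the tests through those arrays alone and is included in the counts that follow, so its differences set signal or background against background.

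The probes behind the largest changes of 3 members follow, each a stretch of 60 bases read from the array files, with probe coordinates on mm9 as given there. They show which transcript each result rests on: Cycs at chr6:50515255-50515314 (minus strand), Ndufs4 at chr13:115078980-115079039 (minus strand) and Cox7a1 at chr7:30970337-30970948 (plus strand), where the match is longer than the probe because it is split.
Cycs probe: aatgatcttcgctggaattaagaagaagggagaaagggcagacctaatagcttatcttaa
Ndufs4 probe: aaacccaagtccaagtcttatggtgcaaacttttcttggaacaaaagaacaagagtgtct
Cox7a1 probe: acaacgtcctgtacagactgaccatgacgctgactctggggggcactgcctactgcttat

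Promoter windows, from 250 bases before to 50 after the annotated start, were listed for 76 of the 94 members in RefSeq (build GRCm38.p6). Letters of 6 motifs were searched on both strands. The palindrome TGACGTCA, the full cyclic AMP response element, was in 5 of the 76 windows (6.58%), against 1.88% of the first listed window of 27025 genes. The 5 genes were Cycs, Ndufa10, Ndufa11, Ndufb2 and Uqcrfs1, and the first 3 are among the members called higher in M1 below. Their surroundings are printed for comparison, with the palindrome in capitals.
Cycs (chr6:50566711-50566758, minus strand): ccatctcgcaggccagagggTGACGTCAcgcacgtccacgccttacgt
Ndufa10 (chr1:92473798-92473845, minus strand): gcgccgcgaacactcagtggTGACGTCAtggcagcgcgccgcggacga
Ndufa11 (chr17:56717584-56717631, plus strand): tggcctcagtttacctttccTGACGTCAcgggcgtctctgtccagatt
Ndufb2 (chr6:39592531-39592578, plus strand): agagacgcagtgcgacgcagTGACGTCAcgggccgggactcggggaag
Uqcrfs1 (chr13:30545318-30545365, minus strand): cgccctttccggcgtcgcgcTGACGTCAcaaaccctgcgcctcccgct

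The 5 members with this palindrome had a median M1 minus M0 difference of 0.71, and the other tested members with a window had 0.30, given as a description. In M2 minus M0 these medians were 0.62 and 0.51. The Cycs match began 169 bases before the start. The 250 bases before that start (chr6:50566570-50566819, minus strand) are printed because Cycs changed most among the members in M1.
Cycs promoter: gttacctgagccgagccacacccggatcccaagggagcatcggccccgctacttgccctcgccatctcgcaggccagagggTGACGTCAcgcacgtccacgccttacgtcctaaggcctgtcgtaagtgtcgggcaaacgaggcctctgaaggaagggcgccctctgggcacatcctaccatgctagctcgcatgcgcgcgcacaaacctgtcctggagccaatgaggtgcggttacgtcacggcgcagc

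Letters of the nuclear respiratory factor NRF1 (GCGCA, any base, then GCGC) were in 22.4% of member windows and 4.78% of all, and those of YY1 (AANATGGC) in 22.4% and 6.23%. The estrogen-related receptor letters AAGGTCA were in 10.5% and 4.66%, the ETS letters CCGGAAGT in 6.58% and 4%, and the STAT6 letters (TTC, any 4 bases, then GAA) in 6.58% and 6.99%. The 17 members with the NRF1 letters had medians of 0.32 in M1 and 0.50 in M2 against M0, and the others 0.30 and 0.53. In M1 the members with the STAT6 letters had 0.55 and the others 0.30, and with YY1 these were 0.42 and 0.29. With ETS they were 0.13 and 0.31, and with the estrogen-related receptor letters 0.25 and 0.33. In M2 against M0 the members with the STAT6 letters had 0.37 and the others 0.53, and with YY1 0.47 and 0.53. With ETS the M2 medians were 0.50 and 0.53, and with the estrogen-related receptor letters 0.48 and 0.53. Windows can hold more than 1 motif, and a match is not a binding site.

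Cycs, which encodes the electron carrier cytochrome c, rose most in M1. It read 3.49, 5.40 and 4.06 in WT M0, M1 and M2, and 3.54, 5.65 and 4.34 in KO. Both M1 arrays stood above the other 4. In the additive limma fit of state and genotype, with Benjamini-Hochberg adjustment over all 19044 tested genes, M1 exceeded M0 by 2.01 ± 0.16 (SE; 4.04-fold, adjusted p = 0.00882). M2 lay 1.33 ± 0.16 below M1 (adjusted p = 0.0142). The 2 further Cycs probes gave M1 minus M0 differences of 1.95 and 2.01.

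Ppargc1b, the coactivator gene, had its highest levels in M2. In WT it read -0.59 in M0, 1.16 in M1 and 3.18 in M2, and in KO -0.72, 0.78 and 1.89. The 3 states did not overlap. It rose in M1 over M0 by 1.62 ± 0.34 (adjusted p = 0.0422) and was higher in M2 than in M1 by 1.56 ± 0.34 (adjusted p = 0.0460). Its M2 minus M0 difference was the largest of the members, 3.76 in WT and 2.61 in KO. With a fitted value of 3.19 ± 0.34 it did not pass (adjusted p = 0.0749), while it passed where only genes above background on all 6 arrays were tested, with median centring, and with a trended variance prior. The other 2 probes of the gene gave 3.19 and 3.27 for the same difference.

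**Figure D1:**
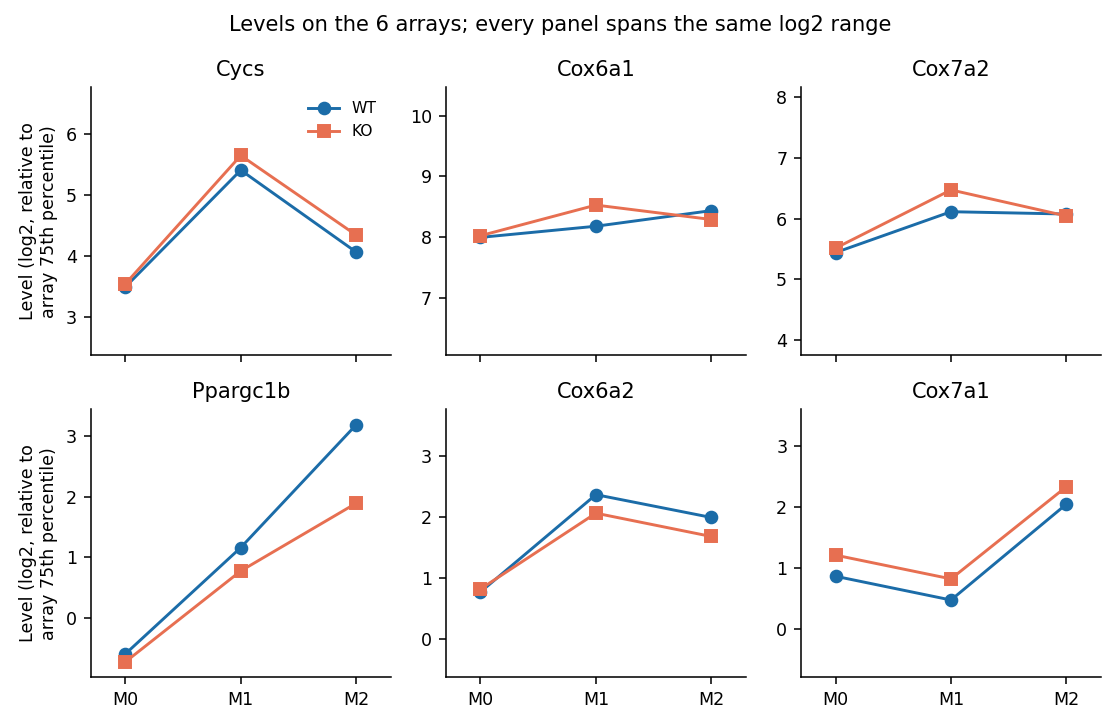
Levels (log2 signal relative to the array's 75th percentile) of 6 members in M0, M1 and M2, with 1 array per point, WT as circles and KO as squares. Cycs peaks in M1 in both genotypes, Ppargc1b and Cox7a1 are highest in M2, and Cox6a2 is lowest in M0.

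M1 against M0 asks how the respiratory chain genes differ after lipopolysaccharide and interferon-gamma. Of the 91 tested members, 9 rose and 1 fell at an adjusted p under 0.05, where 11.6% of all tested genes rose and 14% fell. The members' share that rose was thus near that of all genes. The median member difference was 0.33, against 0.03 over all tested genes, but it was -0.077 after quantile normalization and -0.099 in the authors' deposited table. A positive fitted difference was found for 77 members, and for 51.8% of all genes. With quantile normalization it was 42 members (50.5% of all genes), and 40 (49.9%) in the authors' deposited table. Both M1 arrays were above both M0 arrays for 65 members (30.5% of all genes) and below for 8 (32.6%). These counts were 33 and 38 with quantile normalization (5815 and 6689 of all 19044 genes). In the authors' deposited table they were 29 and 39 (5732 and 6768 of 19044). Within WT, 1 array against 1 array, the members' median was 0.24 with 79 above 0 (51.1% of all genes), and within KO it was 0.39 with 78 above 0 (53.4%). In both genotypes 76 were higher. At least 2-fold higher were 6 members in WT (11.7%) and 6 in KO (13.4%), and at least 2-fold lower were 0 (16.8%) and 1 (14.5%).

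In complex I, Ndufs4, an accessory subunit needed for assembly of the NADH-oxidising arm, rose most. It read 3.30, 4.24 and 3.82 in WT M0, M1 and M2, and 3.30, 4.50 and 3.42 in KO, so both M1 arrays were highest. Its fitted difference was 1.07 ± 0.22 (adjusted p = 0.0414). The accessory subunits Ndufa10 and Ndufa11 rose by 0.73 ± 0.16 and 0.71 ± 0.15 (adjusted p = 0.0480 and 0.0417). Ndufa10 went from 2.35 to 3.05 in WT and from 2.39 to 3.14 in KO, and Ndufa11 from 2.32 to 3.01 and from 2.23 to 2.96. The remaining 33 complex I genes did not pass. Their lowest value was that of Ndufb5, -0.52 (adjusted p = 0.0914). The 7 core subunits, which carry the flavin and iron-sulphur centres, had a median of 0.18 and the 29 accessory subunits 0.23. The complex I median of 0.22 turned to -0.14 after quantile normalization and -0.17 in the authors' deposited table. These 2 scalings called 0 complex I genes higher and 1 lower (14.3% and 14.6% of all genes lower), and normexp called 0 higher. Ndufs4, Ndufa10 and Ndufa11 passed in 8, 9 and 6 of 17 alternative settings. Their differences went down to 0.68, 0.46 and 0.45 under other scalings.

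Complex II, the succinate dehydrogenase, was represented by its iron-sulphur subunit Sdhb and the membrane anchors Sdhc and Sdhd. Sdhb rose by 0.75 ± 0.15 (adjusted p = 0.0378), from 4.24 to 4.98 in WT and from 4.04 to 4.79 in KO, with 4.74 and 4.60 in M2. Sdhd read 4.99, 5.57 and 5.27 in WT M0, M1 and M2, and 4.98, 5.65 and 5.48 in KO. Its M1 minus M0 difference was 0.63 (adjusted p = 0.0607). Sdhc read 3.61, 4.04 and 4.45 in WT and 3.95, 4.32 and 4.28 in KO, a difference of 0.40 (adjusted p = 0.227). On this scale the 3 genes had their M1 arrays above their M0 arrays. The Sdhb difference went down to 0.31 under another scaling and passed in 9 of 17 alternative settings. The complex II median of 0.63 was 0.18 with quantile normalization and 0.15 in the authors' deposited table, and neither called a complex II gene.

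In complex III, Uqcrc2, a core protein of the matrix side, rose by 0.72 ± 0.16 (adjusted p = 0.0468). It read 4.35, 5.12 and 5.0 in WT M0, M1 and M2, and 4.51, 5.19 and 4.92 in KO. Cyc1, the cytochrome c1 subunit that passes electrons to cytochrome c, read 3.51, 4.59 and 4.86 in WT and 3.83, 4.57 and 4.49 in KO. Its difference of 0.91 ± 0.23 did not pass (adjusted p = 0.0604). All 9 complex III genes were positive, with a median of 0.55 that was 0.14 after quantile normalization and 0.13 in the authors' deposited table. Neither of these called a complex III gene, and Uqcrc2 passed in 6 of 17 alternative settings.

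Complex V had no gene past the threshold. The largest differences were those of Atp5o, which encodes the OSCP protein joining the stalk to the catalytic head, at 0.70 (adjusted p = 0.0748), and Atp5d, a central stalk subunit, at 0.49 (adjusted p = 0.101). Its median was 0.29 on the main scale, -0.14 after quantile normalization and -0.18 in the authors' deposited table. Among the genes that encode no subunit, Atp5s fell by 0.97 ± 0.17 (adjusted p = 0.0287). It read 0.11 and -0.70 in WT M0 and M1 and -0.06 and -1.18 in KO, and a second, dimmer probe gave -0.35. The 7 complex I assembly factors had a median of 0.59 and values from -0.55 to 0.93.

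**Figure D2:**
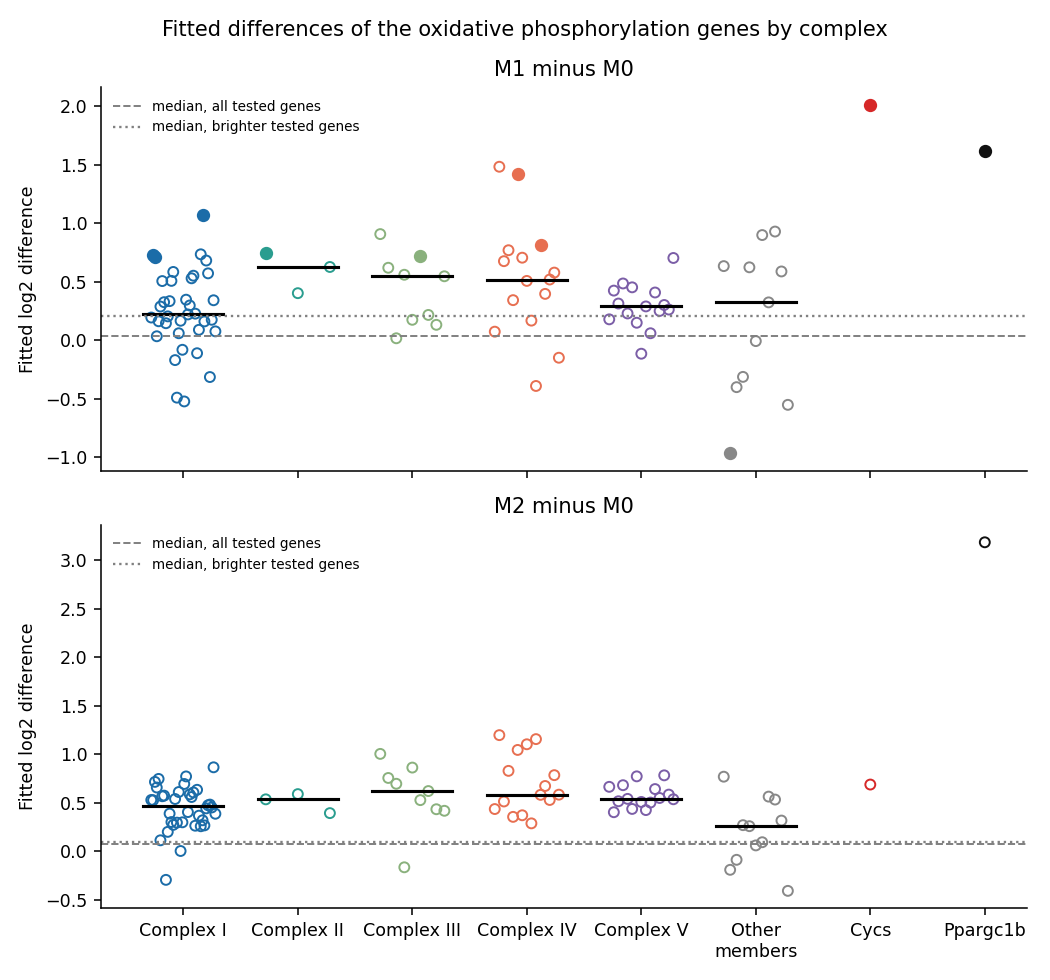
Fitted log2 differences of the 91 tested members by complex, M1 minus M0 above and M2 minus M0 below, with 1 point per gene, filled where the adjusted p is under 0.05, and black bars at group medians. On this scale the complex medians run from 0.22 to 0.63 in M1, of which complexes I and V turn negative under quantile normalization and in the authors' table, and from 0.46 to 0.62 in M2, while dashed and dotted lines mark the medians of all and of brighter genes.

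M2 against M0 asks the same after interleukin-4 and interleukin-13. No member passed in either direction, and over all tested genes 0.0788% passed as higher and 0.021% as lower in limma. At an unadjusted p under 0.05, 45 members were higher and 0 lower, where 9.66% of all tested genes were higher and 9.45% lower. A variance prior with a trend on level, fitted in limma, called 19 members higher and 0 lower, and 2.69% and 2.95% of all tested genes. The median member difference was 0.53, against 0.08 over all tested genes, and it stayed between 0.38 and 0.69 under the 5 scalings. Both M2 arrays lay above both M0 arrays for 79 members (31.1% of all genes) and below for 3 (22.2%). Of the 91 members 86 had a positive fitted difference, against 56.4% of all genes. Within WT 83 were above 0 (57.6%) with 9 at least 2-fold higher (19%) and 1 lower (8.35%). Within KO 87 were above 0 (51.2%) with 2 at least 2-fold higher (4.73%) and 0 lower (4.5%). The WT difference, which crosses slides, was the larger one for 68 members. Their median was 0.57 in WT and 0.46 in KO, and that of all tested genes was also larger in WT, at 0.11 against 0.01.

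The medians of the complexes lay close together in M2, at 0.46 for complex I, 0.53 for complex II, 0.62 for complex III, 0.58 for complex IV and 0.54 for complex V, and each stayed positive under every scaling. Complex V had 15 of 15 genes positive, with values from 0.40 (Atp5b) to 0.78 (Atp5k). The other, dimmer Atp5b probes gave 0.93, 0.74 and 0.52, so the place of this gene depends on the probe. Its c ring genes, which form the proton-driven rotor, were Atp5g1 at 0.77, Atp5g2 at 0.51 and Atp5g3 at 0.42. Atp5k, a membrane subunit, read 4.25 in M0 and 5.17 in M2 in WT, and 4.27 and 4.91 in KO. Atp5g1 read 3.63 and 4.50 in WT and 3.70 and 4.38 in KO.

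In complex I all 7 core subunits were positive in M2, from 0.26 to 0.86, with a median of 0.47. Ndufv2, an iron-sulphur subunit next to the flavin site, had the largest difference of the complex at 0.86 ± 0.25 (adjusted p = 0.210). It read 2.35 in M0 and 3.46 in M2 in WT, and 2.60 and 3.21 in KO. Ndufb6, a membrane-arm accessory subunit, followed at 0.77 ± 0.15. Ndufa6 was the only complex I gene with a negative fitted value, -0.30, and read 3.91 and 3.32 in WT against 3.72 in both KO states.

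In complex III, 8 of 9 genes were positive. Cyc1 had a difference of 1.00 ± 0.23 (adjusted p = 0.158), and Uqcrc1, a core protein of the matrix side, 0.86 ± 0.17 (adjusted p = 0.139). Uqcrc1 read 4.37, 4.60 and 5.40 in WT M0, M1 and M2, and 4.28, 4.40 and 4.97 in KO, so both M2 arrays were highest. Uqcrb, a small subunit near the quinone site, went the other way between genotypes. It read 3.54 in M0 and 2.53 in M2 in WT, and 3.31 and 3.98 in KO. Of the genes that encode no subunit, Atp5c1-ps had 0.77 and Ndufaf4 0.56, while Ndufaf7 had -0.41 and Atp5s -0.19.

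**Figure D3:**
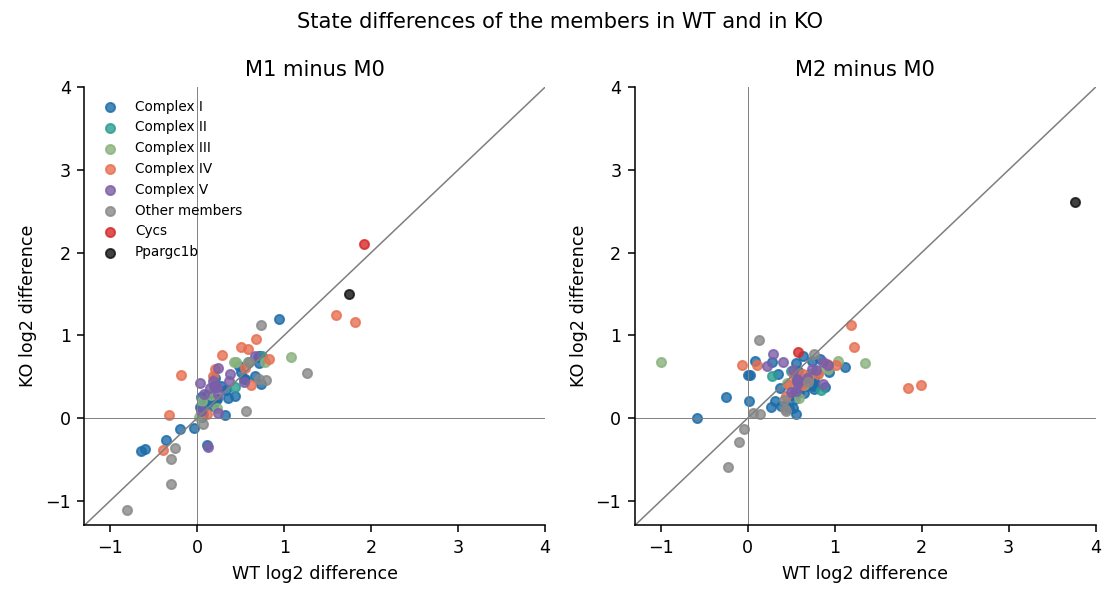
Differences between states in WT (horizontal) and KO (vertical), in log2 units with 1 array against 1 array, for the 91 tested members coloured by complex. In M1 minus M0, 76 members are higher in both genotypes, and in M2 minus M0, 83 are, with Uqcrb alone at the left at -1.01 in WT and 0.67 in KO. Of all tested genes 51.1% are higher in WT and 53.4% in KO in M1 minus M0. In M2 minus M0 these shares are 57.6% and 51.2%.

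Complex IV, cytochrome c oxidase, has subunits with separate genes for separate tissues, and these differed in how they moved. Cox6a2, the heart and skeletal muscle form of subunit 6a, read 0.76, 2.36 and 1.99 in WT M0, M1 and M2, and 0.81, 2.06 and 1.68 in KO. It rose in M1 by 1.42 ± 0.18 (2.68-fold, adjusted p = 0.0166), and its M2 minus M0 difference of 1.04 did not pass (adjusted p = 0.120). The ubiquitous form Cox6a1 read 8.0, 8.18 and 8.44 in WT and 8.03, 8.53 and 8.29 in KO, with differences of 0.34 and 0.35. Of 14 striated muscle markers 7 to 9 were above background per array, and 9 on at least 1 array. Their median level was between -6.19 and -5.24 and their log2 summed level between 0.38 and 2.08. Mb, Myh6, Myl1, Pln and Tnnt2 were above background on none. Single markers went both ways in M1. Tnni3, cardiac troponin I, was above background on all 6 and also rose in M1, by 1.69 (adjusted p = 0.0134; 1.48 in WT and 1.90 in KO), and Myl3 had its highest level, 1.05, in KO M1. Acta1, also above background on all 6, had an M1 minus M0 difference of -2.95 (limma adjusted p = 0.0171), with -3.64 in WT and -2.26 in KO. The fitted differences of Myl2 and Actc1 were -1.85 and -0.33. The part of muscle transcripts in the Cox6a2 difference was not tested.

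Cox7a1, the muscle form of subunit 7a, was highest in M2. It read 0.86, 0.47 and 2.05 in WT and 1.21, 0.82 and 2.33 in KO, and both M2 arrays exceeded the other 4. Its M2 minus M0 difference was 1.16 ± 0.15 (adjusted p = 0.0877). Cox7a2, the ubiquitous form, rose in M1 by 0.81 ± 0.18 (adjusted p = 0.0466). It read 5.44, 6.11 and 6.08 in WT and 5.51, 6.47 and 6.04 in KO, and a second probe gave 0.90. The Cox7a2 difference in M1 went down to 0.35 under another scaling and passed in 6 of 17 alternative settings. Cox7a2l, which helps join complexes into supercomplexes, read 3.92, 3.66 and 4.35 in WT and 4.17, 3.80 and 4.27 in KO, with its M1 arrays lowest and a fitted M1 minus M0 difference of -0.31 (adjusted p = 0.254).

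Cox6b1, the common form of subunit 6b, read 2.66, 3.24 and 2.76 in WT and 2.36, 3.19 and 2.99 in KO, with an M1 minus M0 difference of 0.71 (adjusted p = 0.0769). Cox6b2, the testis form, read -1.72, -1.11 and 0.11 in WT and -1.12, -0.71 and -0.75 in KO. Its M2 minus M0 differences of 1.84 in WT and 0.37 in KO were far apart, and the fitted 1.10 ± 0.43 did not pass. Cox4i1, the common form of subunit 4, read 6.93, 7.03 and 7.40 in WT and 7.01, 7.05 and 7.40 in KO. Its differences from M0 were 0.07 in M1, which was -0.32 after quantile normalization and -0.45 in the authors' deposited table, and 0.43 in M2. Cox4i2 was not well above background on any WT array or on KO M0. Its fitted differences in M1 and M2 were positive and did not pass, and with normexp they were -0.61 and -0.78.

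Cox8a, the common form of subunit 8, read 6.61, 7.16 and 7.52 in WT and 6.68, 7.28 and 7.33 in KO, 0.58 higher in M1 and 0.78 higher in M2 than in M0 (adjusted p = 0.0835 and 0.152). Cox7b read 5.17, 5.38 and 5.98 in WT and 5.33, 5.91 and 5.86 in KO. Ndufa4 read 4.35, 4.02 and 5.05 in WT and 4.45, 4.48 and 4.92 in KO, and was highest in M2 in both genotypes. The complex IV median of 0.52 in M1 was 0.30 with quantile normalization and 0.18 in the authors' deposited table. That of 0.58 in M2 was 0.49 or more under the 5 scalings.

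M2 against M1 compares the polarized states directly. At an adjusted p under 0.05, 4 members were higher (13.6% of all tested genes) and 1 was lower (11.7%). Cox7a1 was higher in M2 by 1.55 ± 0.15 (2.92-fold, adjusted p = 0.00997). Ndufb5, an accessory subunit of the complex I membrane arm, was higher by 1.21 ± 0.16 (adjusted p = 0.0169), reading 0.35 and 1.64 in WT and 0.08 and 1.23 in KO. Ppargc1b and Atp5s were the other higher genes, the latter by 0.77 ± 0.17 (adjusted p = 0.0451), and Cycs was the lower one. In complex V, Atp5g1 and Atp5g2 were each 0.62 higher without passing. In complex III, Uqcrc1 and Uqcr11 had values of 0.69 and 0.68. Both M2 arrays were above both M1 arrays for 44 members (36.3% of all genes) and below for 18 (27.9%). The fitted difference was positive for 62 members (59.1%), and the members' median was 0.14. With median centring 27 members were positive (42.5% of all genes), 15 had M2 above M1 on both arrays (4195 of 19044 genes), and the median was -0.18. Quantile normalization and the authors' deposited table each gave 78 positive (56% and 56.5% of all genes). Of these scalings, 64 and 67 members had M2 above M1 on both arrays (6607 and 6727 of 19044 genes).

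The scaling of the arrays moved these medians. Median centring moved the all-gene median of M1 minus M0 by 0.23 and normexp background correction by -0.36. Members were therefore also read against the 2415 tested genes with a mean level of at least 3.19, with no upper limit. This set includes the members that bright, while dimmer members such as Ppargc1b, Cox6a2 and Cox7a1 lie below it. Relative to the 2415 genes the median of all tested members was higher by 0.08 to 0.12 in M1 minus M0 over the 5 scalings. In M2 minus M0 it was higher by 0.39 to 0.43. In M2 minus M1 it was higher by 0.23 to 0.28. The 10 members called in M1 kept their sign under every scaling, with the smallest size for Uqcrc2, 0.25 in the authors' deposited table.

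**Figure D4:**
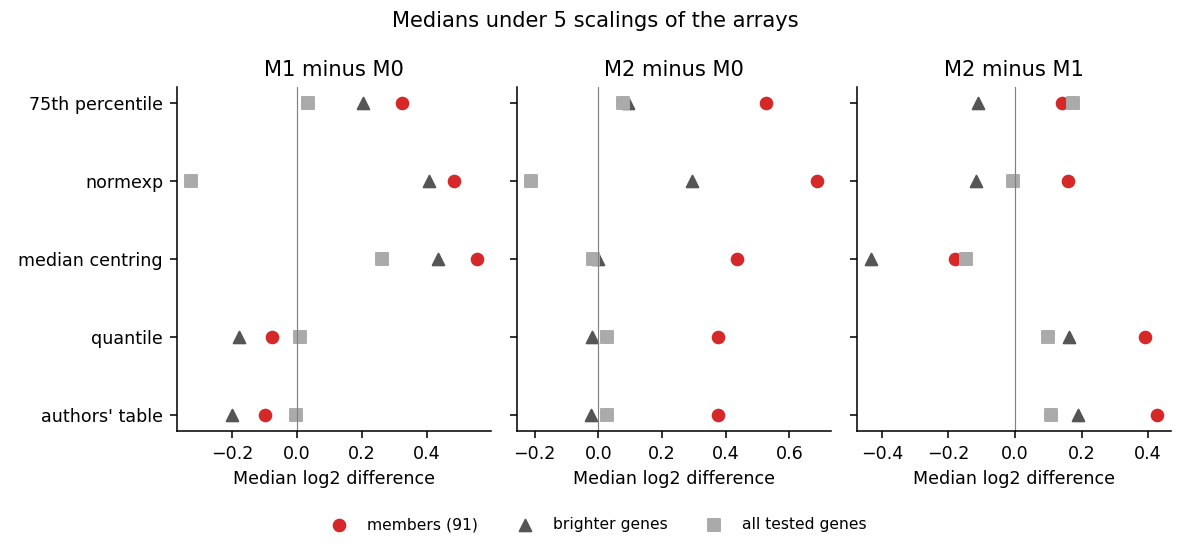
Median log2 differences of the 91 members (circles), of 2415 brighter genes (triangles) and of all 19044 tested genes (squares) under 5 scalings, for 3 comparisons of states. The members lie to the right of the brighter genes in every row, although their M1 minus M0 median is negative under quantile normalization and in the authors' table, and their M2 minus M1 median is negative under median centring.

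The tests of M1 against M0 rest on all 4 arrays of these states. Whichever array of the third state is left out, 2 states are compared by the same fit of their 4 arrays. The results without WT M2 and without KO M2 are therefore 1 fit of M1 minus M0, which the slide block also gives. For M2 minus M1 the slide block equals leaving out WT M2. The alternative settings counted above are thus not all independent. Without WT M0, WT M1, KO M0 or KO M1 no member passed, and neither did any of the 19044 genes, while 11 members were higher without WT M2 and 11 without KO M2 (13.5% of all genes each). In M2 against M1 0 members passed without any 1 of the same 4 arrays. Of all genes 2.91% were higher and 3.01% lower without either M0 array, and none passed without either M1 array. In the members 1 was higher and 0 lower without WT M2 (5.67% and 5.74% of all genes), and 4 were higher and 2 lower without KO M2 (16.3% and 8.54%). The members' median without WT M0, the array with the most liver markers above background, was 0.34 in M1 and 0.50 in M2 against M0.

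KO against WT asks whether Foxo1 loss moved these genes. No member passed, nor did any tested gene (0% in each direction), and at an unadjusted p under 0.05 limma gave 1 member higher (6.86%) and 2 lower (4.47%). The higher one was Cox4i2, a comparison with background readings in WT, and the lower ones were Ndufs8 and Ndufb5. The fitted difference was above 0 for 52 members (61.8%). The fitted median was 0.02 for the members and 0.09 for all tested genes. With the slide as a block the members' median was -0.12. That value rests on the M2 pair alone, the only pair of genotypes within a slide. KO was higher in all 3 states for 8 members (22.1% of all genes) and lower for 14 (15.1%). Among subunits above background on all 6 arrays with the same sign in all states, the lowest were Ndufs8, an iron-sulphur subunit of complex I, at -0.48 and Ndufb5 at -0.40, and the highest Cox7c at 0.45. Ndufs8 read 1.80, 1.44 and 2.08 in WT M0, M1 and M2 and 1.16, 0.89 and 1.84 in KO. Cox7c read 1.82, 2.10 and 2.35 in WT and 2.11, 2.86 and 2.63 in KO.

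Within a state the comparison is 1 array against 1 array, with no replicate check. Over the members the median KO minus WT difference in M0 was 0.061, with 60 members above 0 (60.8% of all genes), and over all tested genes it was 0.11, but the members' value was -0.30 with normexp. In M1 it was 0.085, with 56 above 0 (62.4%), against 0.13, and the members' value turned negative under median centring, quantile normalization and in the authors' deposited table. In M2, whose arrays share a slide, it was -0.12, with 23 above 0 (45%), against -0.051. At least 2-fold higher in KO was 1 member in each state (9.95%, 14% and 3.33% of all genes), and at least 2-fold lower were 0, 0 and 1 (4.22%, 1.69% and 4.91%). In M0 and M1 the higher member was Cox4i2, not well above background on either M0 array or on WT M1, so that no fold holds there. In M2 it was Uqcrb, and the lower one was Ppargc1b. The lowest in M2 were Ppargc1b at -1.29, Cox6b2 at -0.86, Uqcrc1 at -0.43, Ndufb5 at -0.41 and Ndufs4 at -0.40, and the highest Uqcrb at 1.45, Ndufaf5 at 0.63, Ndufab1 at 0.52, Cox6c at 0.49 and Ndufa6 at 0.40. The other Ppargc1b probes read 2.01 and 2.08 in WT M2 against 0.81 and 0.88 in KO M2, so the 3 probes differed the same way. In M0 the lowest member was Ndufs8 at -0.64 and the highest above background on both arrays Cox6b2 at 0.61. In M1 they were Ndufaf3 at -0.73 and Cox7c at 0.76.

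**Figure D5:**
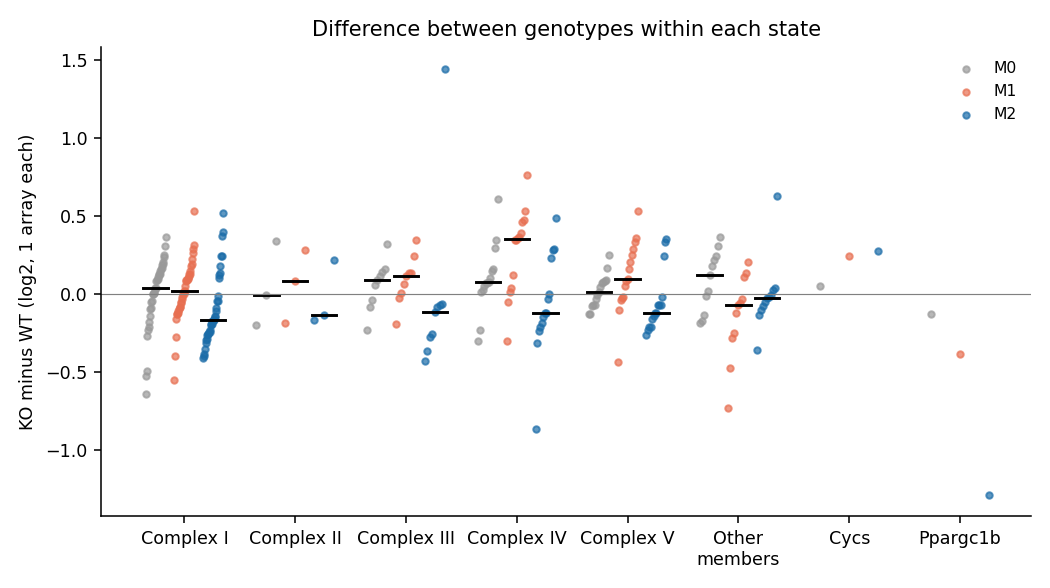
KO minus WT of the tested members by complex in M0, M1 and M2 (log2, 1 array against 1 array per point, black bars at medians), without Cox4i2, which was below background on 4 arrays. Uqcrb at 1.45 and Ppargc1b at -1.29 in M2 are the extremes.

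Other genes of the pathway were taken from lists of known function. Of 78 mitochondrial ribosomal protein genes, 12 rose and 1 fell in M1 against M0, where 11.6% of all tested genes rose and 14% fell. Among them were Mrpl13 at 1.14, Mrpl47 at 1.14 and Mrpl39 at 1.12 higher and Mrpl23 at -0.94. Their median was 0.36 in M1 and 0.20 in M2, where the members had 0.33 and 0.53, and the ribosomal median in M1 was 0.086 with quantile normalization and 0.059 in the authors' deposited table. Of 42 assembly factors and other subunits outside the name rule, 7 rose and 2 fell in M1, against the same 11.6% and 14% of all genes. Sco1 and Coa5, which serve complex IV assembly, rose by 2.42 and 2.00, Cox18, which inserts a complex IV core subunit, by 1.28, and Atpaf1, an ATP synthase assembly factor, fell by 0.96.

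Of 16 biogenesis regulators, Esrra (estrogen-related receptor alpha, a partner of PGC-1 proteins) rose by 1.16 and Ppard by 0.70 in M1, while Pparg, Tfb2m and Polg2 fell by 2.91, 1.30 and 0.98. Ppargc1a, the sister coactivator, had levels between -5.79 and -3.92, with its M2 arrays highest. Of 19 inner membrane carriers and related genes 3 rose and 5 fell, to be read against the same shares of all genes. Gpd2, the glycerol phosphate dehydrogenase that feeds coenzyme Q, rose by 1.77, and Nnt, the transhydrogenase, and Ucp2, an uncoupling protein, fell by 1.25 and 0.99. Of 12 coenzyme Q genes, Coq7 and Coq10b rose by 1.06 and 0.81 and Adck3 (Coq8a) fell by 0.82. In M2 against M0 none of these lists had a gene past the threshold in limma. At an unadjusted limma p under 0.05, 9.66% of all tested genes were higher and 9.45% lower. Higher at this p were 10 of 78 ribosomal protein genes and 2 of 42 assembly factors and other subunits. So were 4 of 16 regulators, 5 of 19 carriers and related genes and 1 of 12 coenzyme Q genes. Lower were 2 of the carrier list and 1 coenzyme Q gene, and none of the other lists. On the main scale the 4 subunit genes of mitochondrial DNA on the arrays, ND4, CYTB, COX2 and ATP6, had 0 calls in either comparison, and 0 at an unadjusted p under 0.05. Their values ran from -0.41 to -0.058 in M1 and from 0.049 to 0.38 in M2. Their M1 median of -0.18 turned to 0.024 with normexp and 0.049 with median centring. It was -0.60 with quantile normalization and -0.64 in the authors' deposited table. Each of these 2 called 1 of the 4 genes lower in M1 (14.3% and 14.6% of all genes).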

How the data were processed

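Each array's scanner file gives spot intensity values written by Agilent Feature Extraction 10.7.3.1, as the deposited files state in their headers; the signal used has local background removed by that software and no scaling across arrays. A deposited table from the authors holds log2 values, with column medians of 5.39 to 5.41, whose normalization was not found in the sources. Control and outlier spots (79 to 164 of 43379) were left out, repeat spots averaged, and 37 of 41174 probes dropped. Each array's 75th percentile was subtracted on the log2 scale, and the brightest probe stood for a gene. Genes with a signal well above background on 2 or more of the 6 arrays entered limma 3.58.1 (R 4.3.3), as an additive model of state and genotype with 2 residual degrees of freedom and Benjamini-Hochberg adjustment. With 1 array per group, genotype effects that vary by state enter the residual. The procedure was tested on simulated data with independent noise and no effect of genotype or slide. That test cannot show how such effects bear on the calls. The members, lists and motifs were chosen with earlier results of these data known. Named genes followed a rule: carriers and tissue isoforms always, per complex and comparison up to 3 called genes each way or else the 2 largest, within a state the 5 highest and lowest, and per list up to 3 called each way, of which some are given. Alternatives were other scalings, filters, probe rules, variance priors, symbols, a slide block and leaving out each array. The number of arrays limits the precision.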

Additional observations from a re-analysis of the deposited data

Results flagged for a closer look

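Uqcrb moved in opposite directions from M0 to M2 in the 2 genotypes, by -1.01 in WT and 0.67 in KO, each from 1 array against 1 array, and the difference was not tested. The WT M2 array held the low value, 2.53, and the other 5 arrays read between 3.31 and 3.99. The gene has 1 probe on the array, and the WT M2 and KO M2 arrays share a slide.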

How the results depend on the processing

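Shares in parentheses are those of all genes tested under the same setting. The members' M2 minus M0 median kept its direction under every alternative, at 0.69 with normexp, 0.43 with median centring, 0.38 with quantile normalization and 0.38 in the authors' deposited table. The M1 minus M0 median was 0.48 with normexp and 0.55 with median centring, and it reversed to -0.077 with quantile normalization and -0.099 in the authors' table. The M2 minus M1 median was -0.18, 0.39 and 0.43 with median centring, quantile normalization and the authors' table. Members higher in M1 than in M0 numbered 2 with normexp (3.66%), 14 with median centring (14.2%), 4 with quantile normalization (10.9%), 4 in the authors' table (2041 of 19044 genes), 18 with genes above background on all 6 arrays (15.7%), 2 with no filter (5.85%) and 31 with a trend prior (16.9%). Members lower numbered 0, 0, 2 and 2 under the first 4 of these (3.1%, 9.94%, 14.3% and 14.6%), 3 with the trend prior (17.4%), 2 with the mean of all probes (13.6%), and 0 with current symbols and 0 without non-subunits (14% each). In M2 minus M0, 1 was higher with median centring (1.19%), 2 on all 6 arrays (0.857%) and 19 with the trend prior (2.69%). In M2 minus M1 the higher and lower counts were 0 and 0 with normexp (3.16% and 4%), 2 and 2 with median centring (8.37% and 15.1%), 12 and 1 on all 6 arrays (16.9% and 15.6%), 21 and 3 with the trend prior (17% and 16.5%), and 1 and 0 with the slide block (5.67% and 5.74%). There 20 were higher with quantile normalization (13.1%), 20 in the authors' table (13.2%) and 2 with no filter (7.16%). KO minus WT gave 0 members under every alternative. With the slide block its median of -0.12 was that of the M2 pair alone. Within states the median was -0.30 in M0 with normexp. In M1 it was -0.24, -0.081 and -0.081 with median centring, quantile normalization and the authors' table. The cause of these changes was not tested.

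Leaving out each array gave 0 to 11 higher and 0 to 1 lower members in M1 minus M0 and 0 to 4 and 0 to 2 in M2 minus M1, with medians of 0.25 to 0.38 and 0.06 to 0.27. M2 minus M0 had 0 members each way and medians of 0.46 to 0.59, and KO minus WT medians ran from -0.02 to 0.07. Where 1 array of a state was left, it was assumed to vary like the others.

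Of the named genes' values, 933 kept direction and side of the threshold, 120 lost the threshold, 46 gained it and 18 reversed. With normexp Cox4i2 became -0.61 in M1 and -0.78 in M2 against M0, and Ndufa4 in M1 became 0.0020, and 0.080 with median centring; leaving out each array it ran from -0.39 to 0.087, positive without WT M1. In M1 minus M0, quantile normalization and the authors' table gave -0.32 and -0.45 for Cox4i1 and -0.028 and -0.074 for Cox7b, and the authors' table -0.018 for Sdhc. In M2 minus M1 the same 2 scalings gave 0.076 and 0.092 for Sdhd, 0.11 and 0.11 for Sdhb, and 0.13 and 0.14 for Uqcrc2. Uqcrb became 0.050 with the slide block, and leaving out each array it ran from -1.51 to 0.050. It was positive without WT M2, which for this comparison is the same fit as the slide block. No paired analysis was possible because the labels give no replicate numbers and each group has 1 array.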
